A study of Homo sapiens with 15 samples.

Results

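Thapsigargin at 0.3 µM was compared, by RNA-Seq, with control brain lysate in Biosensor cells, a human embryonic kidney (HEK293) line. The cells of every group stably express TauRD(P301S)-YFP, the repeat domain of human tau with the P301S substitution fused to yellow fluorescent protein. The control group had been transfected with brain lysate of wildtype mice, and a further group, used here for reference levels only, with lysate of PS19 mice, which carry human P301S tau. Thapsigargin served in the study as the condition of endoplasmic reticulum (ER) stress. RNA-Seq was available for 5 libraries of each group. Genes were compared when their mean over the 5 control and 5 thapsigargin libraries was at least 1 FPKM (fragments per kilobase of transcript and mapped library size), which kept 11759 of the 18338 genes that had a value in all libraries.

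Some limits come with the model and the design. The duration of the thapsigargin treatment is not given in the sources used here. Nor is it stated whether the thapsigargin cells also received lysate, so the effect of the drug and that of the lysate transfection cannot be told apart. Thapsigargin was dissolved in dimethyl sulfoxide, and no vehicle is named for the control group, so a vehicle effect cannot be separated either. All libraries come from a single cell line, and while the study calls the replicates independent, separate cultures are not named, so part of the spread on which the p-values rest may be technical. In these bulk libraries, fewer cells of a kind and less RNA per cell cannot be told apart. Markers gave a partial check of the label. All 7 genes of the HEK293 marker list reached 1 FPKM, but so did 4 of 6 neuron markers, so this threshold does not tell the line from neurons. The marker lists of astrocytes (4 genes), oligodendrocytes (4), microglia (3 measured), blood (2 measured) and liver (1) held none that did. Among the HEK293 markers the keratin gene KRT18 rose (1.22 on the log2 scale) and the N-cadherin gene CDH2 fell (-1.004).

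The ER folds secreted and membrane proteins and stores calcium. Thapsigargin blocks the SERCA pumps that refill this store, and the loss of luminal calcium disturbs folding and calls up the unfolded protein response (UPR). ER-resident sensors signal it, and each has its transcription factor. PERK, encoded by EIF2AK3, phosphorylates eIF2α, which slows translation in general but favours the translation of ATF4. IRE1, encoded by ERN1, splices XBP1 mRNA. ATF6 is itself cut to release a transcription factor. Their targets include ER chaperones, the ER-associated degradation (ERAD) machinery, amino acid metabolism and the proapoptotic factor CHOP, encoded by DDIT3.

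The libraries differed in ways that touch the results. Summed FPKM ran from 506146 to 552511 in the control libraries and from 551499 to 637687 in the thapsigargin libraries, and the number of genes above 0 from 15842 to 15932 and from 15773 to 15916. Correlations between libraries, across genes, were 0.991 to 0.997 among controls and 0.963 to 0.994 among thapsigargin libraries. The median SD of a gene over the 5 libraries was 0.123 in the control group and 0.203 in the thapsigargin group on the log2 scale, and 81.7% of genes varied more with thapsigargin. Library 2 lay farthest from the control mean (r = 0.937) and library 3 nearest (r = 0.979). Within both groups the libraries were also ordered by transcript length. In control libraries 1 and 2 long transcripts lay below and short ones above the group mean (r of the deviation with log2 length, across 11587 genes, -0.497 and -0.423), and in control libraries 4 and 5 the reverse held (0.473 and 0.515). Thapsigargin library 3 (0.402) stood against libraries 1 (-0.292) and 2 (-0.303). The part of this axis in the results below was not tested, so the counts of the gene groups are also given with every library corrected for transcript length, an alternative chosen after seeing the data.

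Most of the expressed transcriptome differed between the thapsigargin and control groups. With limma on log2(FPKM + 0.5) and a Benjamini-Hochberg adjusted p under 0.1, 8152 genes passed (69.3%), of which 3081 rose (26.2%) and 5071 fell (43.1%). The changes were mostly small. Only 223 genes rose at least 2-fold (1.9%) and 352 fell at least 2-fold (2.99%), while 1758 raised and 2513 lowered genes moved by less than 0.5 on the log2 scale. The largest changes were increases. At a log2 fold change of at least 3 there were 5 raised genes and 1 lowered gene, and between 2 and 3 there were 26 raised and 2 lowered. All 5 thapsigargin libraries lay above all 5 control libraries for 1743 genes (14.8%) and below them for 2950 (25.1%). Below, levels written with ± and FPKM are the mean ± SD over 5 libraries of a group (n = 5), control first, and values written with ± and no unit are log2 fold changes ± SE, on the log2(FPKM + 0.5) scale, which understates changes of low genes. The median log2 fold change of all genes was -0.12, and the gene list medians below are to be read against it. Likewise, list counts are to be read against the shares of all tested genes (26.2% raised, 43.1% lowered).

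The balance between raised and lowered genes depended on scale. As deposited, 37.8% of the passing genes were raised. This share was 24.3% after rescaling each library to TPM, an equal total per library (2056 raised, 6394 lowered, median of all genes -0.28), 50.6% with median-ratio scaling (4028 raised, 3926 lowered, median -0.0018) and 47.4% with quantile normalization (3726 raised, 4134 lowered). The direction also followed transcript length. Among the 2899 genes with the shortest transcripts, up to 2033 bases, 49.2% rose and 17.7% fell. Among the 2896 with the longest, from 5174 bases, 9.6% rose and 66.6% fell. Across genes, log2 fold change and log2 length had a correlation of -0.421. After the length correction 3600 of 11587 genes rose (31.1%) and 3908 fell (33.7%), 223 rose at least 2-fold, and the number that fell at least 2-fold went from 352 to 140. Of the genes called, 5880 were called in the same direction before and after the correction and 52 in the opposite direction.

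**Figure D1:**
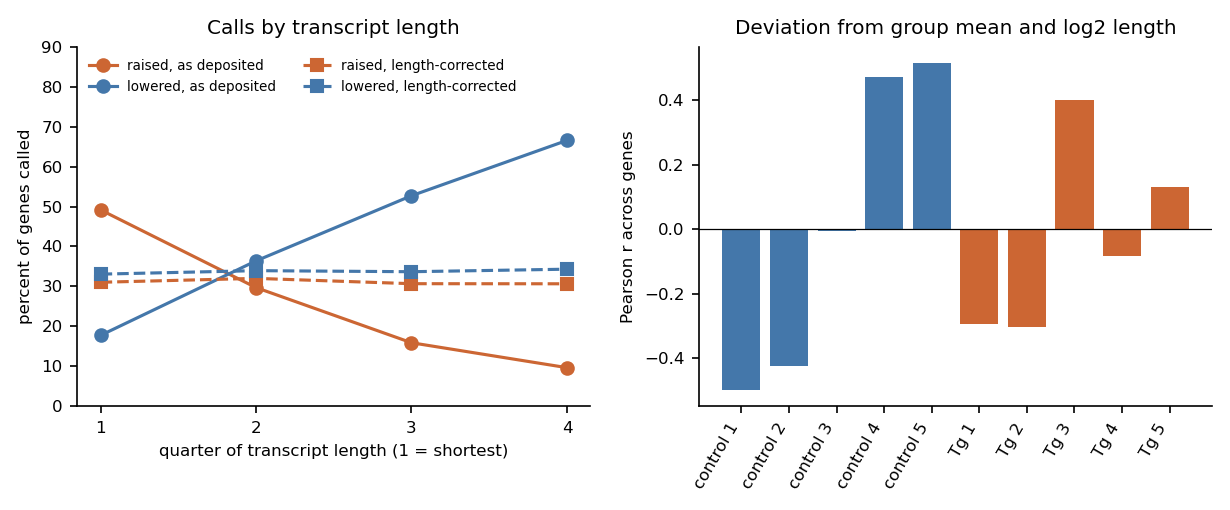
Left: percent of genes raised and lowered (adjusted p under 0.1) in 4 equal classes of transcript length, as deposited (circles) and after the length correction (squares). Right: Pearson correlation across 11587 genes between log2 transcript length and each library's deviation from its own group mean. The share of lowered genes climbs from 17.7% to 66.6% with length as deposited, and control libraries 1 and 2 have negative and control libraries 4 and 5 positive correlations.

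The mRNA levels of the sensors overlapped between the groups. EIF2AK3 stood at 3.23, 3.16, 4.62, 4.72 and 4.68 FPKM in the control libraries and 4.55, 3.21, 8.97, 4.93 and 7.97 FPKM in the thapsigargin libraries, here and below in the order of libraries 1 to 5. Its groups overlapped, since thapsigargin libraries 1 and 2 lay within the control range while libraries 3 to 5 lay above it, and the difference did not pass (log2 fold change 0.42 ± 0.23 (SE), adjusted p = 0.13) but did after the length correction (0.69, adjusted p = 0.0074). ERN1 was low, at 0.91, 1.12, 1.09, 1.23 and 1.38 FPKM in the control libraries and 1.22, 1.11, 1.73, 1.49 and 1.67 FPKM in the thapsigargin libraries. It passed by a narrow margin (log2 fold change 0.23 ± 0.12 (SE), adjusted p = 0.096), with overlapping groups, and more clearly after the length correction (0.62, adjusted p = 5.4e-05). The gene of the sensor ATF6 read 10.9, 11.5, 16.7, 16.7 and 16.7 FPKM in the control libraries and 8.3, 5.73, 15.3, 8.57 and 16.6 FPKM in the thapsigargin libraries. Control libraries 1 and 2 and thapsigargin libraries 1, 2 and 4 were the low ones in their groups, and no change was called (log2 fold change -0.47 ± 0.25 (SE), adjusted p = 0.12). The sensor calls also depended on scale. After rescaling to TPM, EIF2AK3 again did not pass (0.29, adjusted p = 0.37) and ERN1 no longer passed (0.13, adjusted p = 0.46). ATF6 was then called lower (-0.64, adjusted p = 0.068), but it did not pass after the length correction (-0.096, adjusted p = 0.70).

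Most downstream factors were higher with thapsigargin. Of the 19 tested UPR transcription factors 15 rose and 0 fell, with a median log2 fold change of 0.82. After the length correction 16 rose, and rescaling to TPM left 14 raised and 2 lowered. The largest change of the whole transcriptome was that of DDIT3. It read 7.56, 14.6, 10.9, 9.09 and 10.1 FPKM in the control libraries and 140.2, 165, 120.4, 143 and 129.9 FPKM in the thapsigargin libraries. The lowest thapsigargin library was thus several times the highest control library (13.4-fold between the means, log2 fold change 3.70 ± 0.14 (SE), adjusted p = 4.8e-09). ATF4, the factor whose translation eIF2α phosphorylation favours, was already abundant, at 625, 623, 602, 511 and 542 FPKM in the control libraries and 1377, 1618, 1094, 1416 and 1222 FPKM in the thapsigargin libraries. Every thapsigargin library exceeded every control (log2 fold change 1.204 ± 0.11 (SE), adjusted p = 5.2e-06). XBP1, the target of IRE1 splicing, read 92.2, 103, 103, 98.3 and 108 FPKM in the control libraries and 252.18, 201, 300.3, 246 and 261 FPKM in the thapsigargin libraries (log2 fold change 1.31 ± 0.097 (SE), adjusted p = 9.4e-07). FPKM per gene does not separate its spliced from its unspliced form.

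TRIB3, a pseudokinase that CHOP and ATF4 induce, had the smallest p of all genes. Its 10 values were 17.4, 17.9, 17.6, 15.5 and 17.4 FPKM in the control libraries and 102, 99.1, 93.4, 96.03 and 97.4 FPKM in the thapsigargin libraries (log2 fold change 2.47 ± 0.065 (SE), adjusted p = 2.5e-10). The thapsigargin libraries lay within 10 FPKM of each other, so this gene did not show the wider spread that most genes had in that group. CEBPB, which encodes a leucine-zipper partner of CHOP, rose from 13.4 ± 1.1 to 63.5 ± 10.8 FPKM. NUPR1, a small stress-induced chromatin protein, was low in controls and rose from 1.79 ± 0.48 to 20.7 ± 5.9 FPKM, a log2 fold change of 3.19 ± 0.20 (SE). ATF3 (1.08 ± 0.13), JDP2 (1.55 ± 0.13) and CEBPG (1.18 ± 0.08), further leucine-zipper factors, also rose at least 2-fold, whereas ATF5 (-0.041 ± 0.11), ATF6B (0.047 ± 0.082) and NFE2L1 (-0.14 ± 0.084) did not pass. The PS19 lysate libraries, for reference, held DDIT3 at 6.68 to 9.61 FPKM and TRIB3 at 15.6 to 17.8 FPKM.

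**Figure D2:**
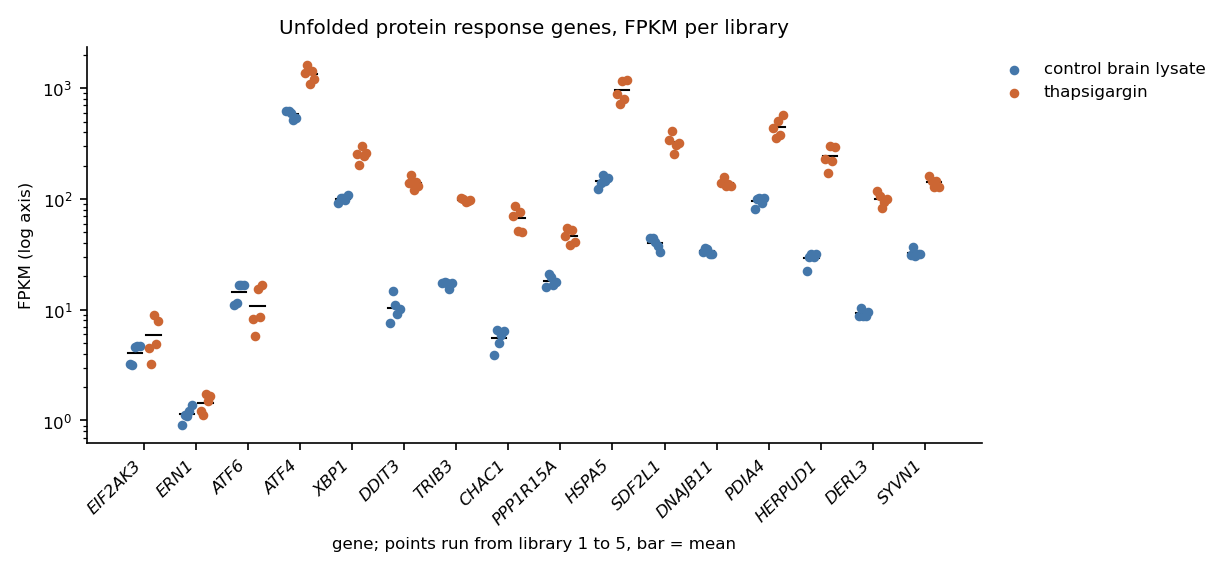
FPKM on a log axis for 16 genes of the unfolded protein response in the 5 control libraries (blue) and the 5 thapsigargin libraries (orange), with a bar at each group mean. EIF2AK3, ERN1 and ATF6, which encode the sensors, overlap between the groups, and from ATF4 onward every thapsigargin value lies above every control value.

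ER chaperones and cochaperones rose broadly: 24 of 29 tested members rose and 2 fell, with a median log2 fold change of 0.85, and 14 rose at least 2-fold. The counts were 20 and 3 with TPM and 24 and 3 after the length correction. HSPA5 encodes BiP, the ER Hsp70 that also holds the sensors inactive. It read 122, 140.2, 163, 144 and 156 FPKM in the control libraries and 894, 722, 1171, 793 and 1187 FPKM in the thapsigargin libraries. Its lowest thapsigargin value, in library 2, was more than 4 times its highest control value (6.57-fold between means, log2 fold change 2.69 ± 0.14 (SE), adjusted p = 4.3e-08). SDF2L1, a partner of the BiP cochaperones, was at 44.8, 44.4, 41.3, 37.4 and 33.1 FPKM in the control libraries and 339, 409.9, 256, 307 and 321 FPKM in the thapsigargin libraries (log2 fold change 2.999 ± 0.12 (SE), adjusted p = 6.6e-09). For this short transcript library 2 was the highest of the thapsigargin group and library 3 the lowest, whereas library 2 was the lowest for HSPA5. DNAJB11, a BiP cochaperone, rose from 33.8 ± 1.97 to 139 ± 10.8 FPKM.

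Further chaperones rose as well. CRELD2, an ER protein with disulfide isomerase activity, went from 28.7 ± 2.4 to 118 ± 10.8 FPKM. Means rose for the nucleotide exchange factor HYOU1 from 59.4 to 263 FPKM (log2 fold change 2.12 ± 0.11 (SE), adjusted p = 3.8e-08) and for the secreted stress factor MANF from 115 to 514 FPKM (log2 fold change 2.14 ± 0.11 (SE), adjusted p = 5.2e-08). The calcium-binding chaperones HSP90B1 (GRP94) and CALR (calreticulin), abundant in controls, rose from 244 to 793 FPKM (1.69 ± 0.092 on the log2 scale) and from 481 to 1382 FPKM (1.53 ± 0.077). The related lectin CANX (calnexin) rose far less (log2 fold change 0.33 ± 0.16 (SE), adjusted p = 0.091). FICD, which modifies BiP, and FKBP2, an ER prolyl isomerase, rose by 1.89 ± 0.10 and 2.05 ± 0.16. Not every member followed. The collagen chaperone SERPINH1 did not pass (log2 fold change 0.011 ± 0.069 (SE), adjusted p = 0.9), and FKBP9 and SDF2, the latter a paralog of SDF2L1, fell (-0.58 ± 0.10 and -0.23 ± 0.091).

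The promoters of some of these genes share a sequence that the comparison did not use. Windows from 250 bases before to 50 bases after the RefSeq start site (GRCh38.p14) were on hand for 9668 of the 11759 tested genes (82.2%). The ER stress response element (ERSE), bound by ATF6 with NF-Y, was searched as CCAAT, any 9 bases, then CCACG, on both strands, and ERSE-II as ATTGG, any base, CCACG. ERSE stood in 14 of the tested promoters (0.145%), against 0.081% of all 27305 promoters in the table. Of these 14 genes 13 rose and 0 fell, and ERSE was found in 4.86% of 185 promoters of genes raised at least 2-fold and in 0 of 283 promoters of genes lowered at least 2-fold. ERSE-II stood in 11 tested promoters, of which 7 belonged to raised and 3 to lowered genes. Together 20 of 25 genes with either element rose, 13 of them at least 2-fold, and 20 also rose after the length correction. These genes are not all separate sites, since CRELD2 with ALG12 and SERP1 with EIF2A each share 1 element between divergent starts.

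The windows below show the elements of chaperone genes and XBP1 described above and of NUCB1, a calcium-binding protein described further on, each written 5′ to 3′ on the strand of its gene, with the ERSE or ERSE-II, and further below the CARE, in capitals and 20 flanking bases.
HSPA5, chr9:125241371-125241429, minus strand: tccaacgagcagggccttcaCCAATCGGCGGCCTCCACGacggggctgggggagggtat
HSP90B1, chr12:103930196-103930359, plus strand: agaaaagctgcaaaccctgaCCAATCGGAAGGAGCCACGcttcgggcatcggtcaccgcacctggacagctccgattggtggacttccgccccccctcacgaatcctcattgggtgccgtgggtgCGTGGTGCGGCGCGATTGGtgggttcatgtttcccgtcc
HYOU1, chr11:119057254-119057413, minus strand: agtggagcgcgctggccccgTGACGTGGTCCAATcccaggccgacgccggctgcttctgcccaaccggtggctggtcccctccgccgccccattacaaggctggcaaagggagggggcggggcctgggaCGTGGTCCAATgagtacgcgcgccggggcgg
CALR, chr19:12938364-12938422, plus strand: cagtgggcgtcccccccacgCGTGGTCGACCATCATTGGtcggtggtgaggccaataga
XBP1, chr22:28800583-28800641, minus strand: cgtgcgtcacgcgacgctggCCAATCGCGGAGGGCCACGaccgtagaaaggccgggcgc
FICD, chr12:108515103-108515161, plus strand: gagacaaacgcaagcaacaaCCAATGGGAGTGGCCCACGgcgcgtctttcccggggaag
CANX, chr5:179698758-179698816, plus strand: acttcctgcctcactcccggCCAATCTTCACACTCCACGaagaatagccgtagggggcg
CRELD2, chr22:49918534-49918592, plus strand: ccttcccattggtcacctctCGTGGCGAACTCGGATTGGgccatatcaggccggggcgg
SDF2L1, chr22:21642094-21642144, plus strand: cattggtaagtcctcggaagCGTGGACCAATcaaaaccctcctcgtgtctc
NUCB1, chr19:48900223-48900273, plus strand: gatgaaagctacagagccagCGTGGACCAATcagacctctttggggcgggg
In HSPA5, XBP1, FICD and CANX the element runs in the direction of the gene, starting at positions -66, -52, -154 and -151 relative to the start site. In CALR, CRELD2, SDF2L1 and NUCB1 it is read from the opposite strand. HSP90B1 holds an ERSE in each direction, and HYOU1 holds a pair of ERSE-II on the opposite strand, the upstream one overlapping a UPRE core that is also in capitals. The CRELD2 window also lies in the promoter of ALG12, a mannosyltransferase of N-glycosylation that is transcribed the other way, and ALG12 rose too (log2 fold change 1.13 ± 0.11 (SE), adjusted p = 7.5e-06). The same element thus went with a log2 fold change of 2.69 in HSPA5 and of 0.33 in CANX, or 2.90 and 0.62 after the length correction. HERPUD1 carries an ERSE-II and, further upstream, a CARE, an element described below.
HERPUD1, chr16:56931946-56932055, plus strand: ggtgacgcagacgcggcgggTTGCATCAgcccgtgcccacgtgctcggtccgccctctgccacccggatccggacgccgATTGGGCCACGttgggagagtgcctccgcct
An ERSE-II did not always go with a rise: that of the transcription factor gene ZNF143 is printed for contrast, with a CARE downstream of it, and ZNF143 fell (log2 fold change -0.64 ± 0.095 (SE), adjusted p = 1.6e-04).
ZNF143, chr11:9460881-9460963, plus strand: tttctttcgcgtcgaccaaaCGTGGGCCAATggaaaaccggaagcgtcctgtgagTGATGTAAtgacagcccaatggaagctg

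**Figure D3:**
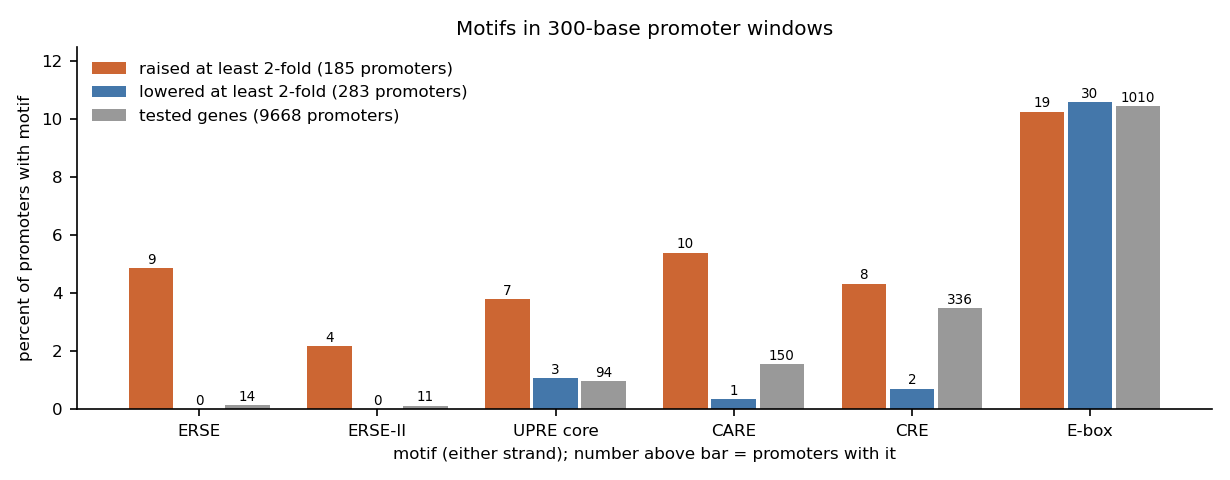
Percent of promoter windows that hold each motif on either strand, for genes raised at least 2-fold (185 windows), genes lowered at least 2-fold (283) and all tested genes (9668), with the number of windows above each bar. ERSE reaches 4.86% among raised genes and 0 among lowered genes, while the E-box is near 10% in all groups.

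Further motifs also occurred in promoters of genes lowered at least 2-fold, where ERSE was not found. The UPRE core, TGACGTGG, to which XBP1 and ATF6 bind, stood in 3.78% of the promoters of genes raised at least 2-fold, in 1.06% of those lowered at least 2-fold and in 0.972% of those tested. The C/EBP-ATF response element (CARE), searched as TGATGNAA, was found in 5.41%, 0.353% and 1.55%. The cAMP response element TGACGTCA stood in 4.32%, 0.707% and 3.48%, and the E-box CACGTG in 10.3%, 10.6% and 10.4%. The CCAAT box, which is part of both ERSE forms, was in 51.4%, 36.7% and 37.2%. The transcripts of all these genes also differ in length, and the part of length in the shares was not tested.

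The oxidative folding enzymes of the ER split. Of 21 tested, 12 rose and 4 fell (median 0.43), with 10 and 6 after rescaling to TPM and 12 raised and 3 lowered after the length correction. PDIA4, a protein disulfide isomerase, read 81.8, 98.9, 102, 91.7 and 102 FPKM in the control libraries and 433, 355, 500.1, 375 and 567 FPKM in the thapsigargin libraries. The groups stood far apart, with library 2 the lowest and library 5 the highest of the thapsigargin group (log2 fold change 2.21 ± 0.12 (SE), adjusted p = 7.8e-08). P4HB, a further isomerase, rose from 209 ± 11.03 to 424 ± 19.98 FPKM and PDIA5 from 12.9 ± 0.33 to 27.99 ± 2.5 FPKM. The oxidase gene ERO1B rose (1.32 ± 0.12) while its paralog ERO1A did not pass (0.066 ± 0.11). Both quiescin oxidases, QSOX1 (-0.43 ± 0.12) and QSOX2 (-0.40 ± 0.078), were called lower, as were the peroxiredoxin PRDX4 (-0.47 ± 0.17) and the membrane isomerase TMX1 (-0.57 ± 0.21). Neither oxidase passed after the length correction (adjusted p = 0.8 and 0.13).

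ERAD, which returns misfolded proteins to the cytosol for ubiquitination, held some of the largest and several of the smallest changes. Overall 16 of 30 tested members rose and 7 fell, with a median of 0.28, and 17 raised and 6 lowered after the length correction. DERL3, a channel-associated derlin, read 8.81, 10.3, 8.84, 8.71 and 9.6 FPKM in the control libraries and 119, 106, 83.5, 92.9 and 99.2 FPKM in the thapsigargin libraries. That is a 10.8-fold difference between means without overlap (log2 fold change 3.36 ± 0.096 (SE), adjusted p = 3.0e-10). HERPUD1, which organizes the ubiquitin ligase complex, read 22.5, 29.9, 31.7, 30.1 and 31.9 FPKM in the control libraries and 229, 170.3, 303, 218 and 297 FPKM in the thapsigargin libraries (log2 fold change 3.02 ± 0.15 (SE), adjusted p = 3.3e-08). Control library 1 and thapsigargin library 2 were the lowest of their groups. The ligase SYVN1 (HRD1) rose from 32.7 ± 2.5 to 141 ± 13.3 FPKM and its selenoprotein partner SELENOK from 35.5 ± 1.95 to 124 ± 14.4 FPKM. The paralogs of the derlin family differed, with DERL2 raised by 1.23 ± 0.093 and DERL1 at -0.038 ± 0.12, which did not pass. The cytosolic part of the pathway did not rise as a block: the segregase VCP was at 0.016 ± 0.11, UFD1 rose by 0.22 ± 0.086 and NPLOC4 fell (log2 fold change -0.53 ± 0.069 (SE), adjusted p = 6.4e-05). HERPUD2, a homolog of HERPUD1, also fell (-0.52 ± 0.15).

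Genes for protein entry into the ER were mostly higher as well. In translocation and signal cleavage 15 of 23 tested members rose and 2 fell (median 0.48), and 15 raised and 1 lowered after the length correction. The channel gene SEC61A1 read 79.3, 87.6, 91.2, 101 and 91.4 FPKM in the control libraries and 201, 192, 210.5, 188 and 242 FPKM in the thapsigargin libraries (log2 fold change 1.19 ± 0.088 (SE), adjusted p = 8.8e-07). SSR2, a subunit of the translocon-associated complex, rose from 277 ± 12.47 to 662 ± 49.8 FPKM, and the receptor gene SRPRA from 58.8 ± 2.4 to 119 ± 11.5 FPKM. The second channel paralog SEC61A2 did not pass (-0.095 ± 0.099), and SRP9, a subunit of the signal recognition particle, fell (-0.44 ± 0.14).

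Glycosylation and vesicle transport were mixed. Of 31 N-glycosylation genes 14 rose and 8 fell, a balance that came to 11 and 10 with TPM and to 18 raised and 7 lowered after the length correction. Of 38 genes of ER-Golgi transport 17 rose and 8 fell, against 13 and 12 in TPM and 19 raised and 6 lowered after the length correction. The dolichol mannosyltransferase ALG2 rose from 11.6 ± 0.5 to 19.9 ± 2.3 FPKM, while TUSC3, a subunit of the oligosaccharyltransferase, fell from 14.3 ± 0.87 to 8.59 ± 2.1 FPKM. In the COPII coat, which buds vesicles from the ER, paralogs moved apart. SEC24D (1.34 ± 0.28) and the shell subunit SEC31A (1.00 ± 0.087) rose, while SEC24A (-0.74 ± 0.24), SEC24B (-0.98 ± 0.18) and SEC23A (-1.20 ± 0.27) fell. SEC23A read 25.9, 26.5, 33.8, 36.8 and 36.4 FPKM in the control libraries and 10.9, 7.07, 25.3, 11.8 and 18.6 FPKM in the thapsigargin libraries. Library 3 came close to the control libraries 1 and 2, without overlap. The SNARE gene STX5 rose from 28.8 ± 2.05 to 70.2 ± 5.6 FPKM, and a UPRE core starts at position -16 of its promoter window. In the UFM1 system, which modifies ER-bound ribosomes, 7 of 9 tested members rose and 0 fell, with 5 and 0 after the length correction. UFM1 itself rose from 15.4 ± 0.81 to 32.1 ± 4.4 FPKM.

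Genes of the integrated stress response and amino acid supply formed the next block. PPP1R15A encodes GADD34, which directs a phosphatase to eIF2α and so undoes the work of the kinases, and read 16.04, 21.2, 19.7, 16.6 and 17.7 FPKM in the control libraries and 45.9, 54.7, 38.7, 51.9 and 40.9 FPKM in the thapsigargin libraries. Every thapsigargin library exceeded every control (log2 fold change 1.32 ± 0.11 (SE), adjusted p = 2.8e-06). Its constitutive paralog PPP1R15B went the other way (log2 fold change -0.46 ± 0.13 (SE), adjusted p = 0.0084), a call that was lost after the length correction (-0.15, adjusted p = 0.15). The kinases of eIF2α other than PERK differed, with EIF2AK1 raised (0.28 ± 0.12), EIF2AK2 not passing (-0.048 ± 0.098) and EIF2AK4 lowered (-0.52 ± 0.085), the last not after the length correction (-0.19, adjusted p = 0.11).

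Amino acid synthesis genes were mostly higher: 15 of 22 tested members rose and 2 fell (median 0.59). After the length correction 18 were raised and 1 lowered. ASNS, asparagine synthetase, read 60.6, 76.2, 69.5, 68.5 and 68.8 FPKM in the control libraries and 182, 201, 182, 208 and 187 FPKM in the thapsigargin libraries (log2 fold change 1.48 ± 0.076 (SE), adjusted p = 3.8e-08). CTH, which makes cysteine from cystathionine, rose from 9.92 ± 1.5 to 41.6 ± 5.8 FPKM and the alanine transaminase GPT2 from 15.8 ± 0.73 to 33.2 ± 1.3 FPKM. The serine pathway enzymes PSAT1, PSPH and PHGDH rose by 0.86 ± 0.15, 0.81 ± 0.11 and 0.71 ± 0.09. The mitochondrial transaminase GOT2 fell slightly (-0.20 ± 0.068).

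The amino acid transporters moved in both directions. SLC6A9, a glycine carrier, read 6.49, 7.67, 7.4, 7.52 and 7.26 FPKM in the control libraries and 47.3, 46.3, 39.5, 46.5 and 37.7 FPKM in the thapsigargin libraries (log2 fold change 2.50 ± 0.086 (SE), adjusted p = 2.0e-09). The groups were separated by 30 FPKM. SLC1A4, which carries alanine and serine, rose from 4.1 ± 0.58 to 19.7 ± 1.98 FPKM, and SLC7A5, a carrier of large neutral amino acids, from 77.8 ± 5.7 to 163 ± 11.2 FPKM. The cystine transporter SLC7A11 and the shared heavy chain SLC3A2 rose by 1.16 ± 0.18 and 1.02 ± 0.074. SLC36A1 (-1.15 ± 0.13), SLC1A1 (-1.07 ± 0.13) and the arginine carrier SLC7A2 (-1.08 ± 0.20) fell. Over 19 transporters 10 rose and 6 fell, against 7 and 7 with TPM and 12 raised and 4 lowered after the length correction.

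Cytosolic tRNA synthetases rose. Of 22 cytosolic genes 17 rose and 2 fell (median 0.50), and of 17 mitochondrial genes 4 rose and 7 fell (median -0.20), the latter near the share of all tested genes (26.2% raised, 43.1% lowered) and with 7 and 3 under median-ratio scaling. Both counts were the same after the length correction, and the difference between the lists was not tested. GARS rose from 128 ± 6.4 to 258 ± 23.03 FPKM, CARS from 21.4 ± 1.6 to 42.3 ± 2.8 FPKM and TARS from 112 ± 3.5 to 177 ± 5.9 FPKM. The cytosolic RARS (-0.45 ± 0.12) and QARS (-0.18 ± 0.068) fell. In mitochondria LARS2 fell from 24.4 ± 1.1 to 13.7 ± 2.3 FPKM while SARS2 rose from 27.4 ± 3.7 to 47.8 ± 9.6 FPKM.

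CHAC1, which degrades glutathione and is a target of ATF4 and CHOP, had the second largest change of the transcriptome. It read 3.87, 6.58, 5.03, 5.95 and 6.45 FPKM in the control libraries and 70.8, 86.4, 51.4, 76.5 and 49.9 FPKM in the thapsigargin libraries (log2 fold change 3.46 ± 0.17 (SE), adjusted p = 3.2e-08). Libraries 3 and 5 were the lower ones, both still above 49 FPKM. CHAC1 and ASNS each carry a CARE upstream, shown here as sites at which ATF4 heterodimers can bind, with the motif in capitals.
CHAC1, chr15:40953242-40953289, plus strand: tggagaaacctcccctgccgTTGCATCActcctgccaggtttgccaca
ASNS, chr7:97872449-97872496, minus strand: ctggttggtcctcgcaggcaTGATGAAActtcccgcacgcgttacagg
In CHAC1 the motif is read from the opposite strand and starts at position -209, and in ASNS it lies on the strand of the gene at position -68. No CARE was found in this window for TRIB3, DDIT3 or SLC6A9, which says only that these letters are not there.

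CHAC1 belongs to a list of glutathione and NRF2 genes of which, of 21 tested, 4 rose and 9 fell, near the share of all tested genes (43.1% lowered), with 4 raised and 11 lowered after the length correction. The lowered ones were the NRF2 targets SRXN1 (from 21.1 ± 2.02 to 9.19 ± 2.6 FPKM), GSR (-0.81 ± 0.11), TXNRD1 (-0.78 ± 0.14) and NQO1 (-0.39 ± 0.095) among others. HMOX1, heme oxygenase, was lower by a smaller step (log2 fold change -0.33 ± 0.11 (SE), adjusted p = 0.019), with control library 2 at 44.3 FPKM apart from the other controls.

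The calcium store genes, the direct target of the drug included, changed in both directions. ATP2A2, which encodes the main SERCA pump, read 34.00, 35.8, 42.7, 50.3 and 46.3 FPKM in the control libraries and 40.4, 28.3, 60.4, 43.8 and 52.9 FPKM in the thapsigargin libraries. The groups overlapped and no difference was called (log2 fold change 0.079 ± 0.18 (SE), adjusted p = 0.71), although it passed after the length correction (0.47, adjusted p = 0.0064). ATP2A3 was low and fell, at 1.46, 1.72, 1.48, 1.5 and 1.65 FPKM in the control libraries and 0.84, 0.88, 0.68, 0.77 and 0.76 FPKM in the thapsigargin libraries (log2 fold change -0.68 ± 0.084 (SE), adjusted p = 4.8e-05). ATP2A1, the muscle form, was also near 1 FPKM (log2 fold change 0.30 ± 0.13 (SE), adjusted p = 0.065). The calcium-binding nucleobindins rose, NUCB2 from 33.3 ± 2.7 to 112 ± 10.6 FPKM and NUCB1 from 62.3 ± 3.6 to 109 ± 12.9 FPKM. Store-operated entry genes were lower, with STIM1 at -0.43 ± 0.095, STIM2 at -0.48 ± 0.092 and ORAI1 at -0.26 ± 0.10, as were the release channels ITPR2 (-0.51 ± 0.11) and ITPR3 (-0.61 ± 0.087). Of 27 tested 6 rose and 13 fell, near the share of all tested genes (26.2% raised, 43.1% lowered), or 8 raised and 10 lowered after the length correction.

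Of 16 growth arrest and mTORC1 genes 4 rose and 8 fell, near the share of all tested genes (26.2% raised, 43.1% lowered). The counts were 5 raised and 4 lowered under median-ratio scaling and 5 raised and 7 lowered after the length correction. GADD45A, a growth arrest gene, rose from 10.9 ± 1.3 to 35.4 ± 2.5 FPKM, SESN2, a sestrin that restrains mTORC1, from 37.96 ± 3.9 to 109.9 ± 12.7 FPKM, and EIF4EBP1, the repressor of cap-dependent translation, from 295 ± 38.2 to 902 ± 156.5 FPKM. The other sestrins fell (SESN1 -0.48 ± 0.08, SESN3 -1.01 ± 0.20). CDKN1A, which encodes the inhibitor p21, did not pass (log2 fold change -0.11 ± 0.086 (SE), adjusted p = 0.28), and of 15 p53 targets 3 rose and 1 fell, with 1 raised and 7 lowered in TPM and 5 raised and 2 lowered after the length correction. In the BCL2 family and death receptors 4 of 21 tested members rose and 8 fell, also near the share of all tested genes, and 4 raised and 7 lowered after the length correction. BBC3 (PUMA) rose slightly (log2 fold change 0.46 ± 0.13 (SE), adjusted p = 0.011). BCL2L11 (BIM) fell, at 7.47, 8.89, 9.33, 10.8 and 9.45 FPKM in the control libraries and 5.53, 4.46, 5.88, 4.97 and 4.65 FPKM in the thapsigargin libraries (log2 fold change -0.79 ± 0.11 (SE), adjusted p = 9.0e-05). The receptor gene TNFRSF10B, a known CHOP target, did not pass (log2 fold change -0.098 ± 0.097 (SE), adjusted p = 0.39), and the decoy receptor TNFRSF10D fell from 2.65 ± 0.55 to 1.04 ± 0.2 FPKM. Of 6 secreted stress factors tested STC2 (from 24.2 ± 3.9 to 54.9 ± 2.5 FPKM) and VEGFA (from 26.6 ± 4 to 49.1 ± 1.8 FPKM) rose most.

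While ER chaperones rose, cytosolic chaperones fell. In the heat shock list 1 of 21 tested members rose and 16 fell (median -0.43, 1 raised and 15 lowered after the length correction). HSPA8, the constitutive cytosolic Hsp70, had the largest decrease of all genes. It read 676, 679, 1273, 1214 and 1308 FPKM in the control libraries and 68.4, 52.4, 170.0, 84.8 and 231 FPKM in the thapsigargin libraries. Control libraries 1 and 2 were below 700 FPKM and libraries 3 to 5 above 1200, yet the highest thapsigargin library was at 230.9 FPKM (log2 fold change -3.24 ± 0.37 (SE), adjusted p = 2.7e-05). HSPA1B, an inducible Hsp70, read 534, 651, 598, 566 and 643 FPKM in the control libraries and 94.4, 80.3, 118, 84.7 and 127 FPKM in the thapsigargin libraries (log2 fold change -2.58 ± 0.13 (SE), adjusted p = 3.1e-08). Its reads are shared with the near-identical HSPA1A, so the split between the copies is uncertain. DNAJB1 and DNAJA1, Hsp40 cochaperones, fell from 80.2 ± 3.8 to 30.9 ± 4.5 FPKM and from 119 ± 10.1 to 50.9 ± 11.6 FPKM. HSPH1, an Hsp110 exchange factor, fell from 71.6 to 33.5 FPKM (log2 fold change -1.13 ± 0.17 (SE), adjusted p = 1.8e-04), and the Hsp90 genes HSP90AA1 and HSP90AB1 by smaller steps (-0.55 ± 0.087 and -0.59 ± 0.10). The single raised member was HSF1, the heat shock transcription factor, from 51.5 ± 6.6 to 82.3 ± 14.7 FPKM. The TRiC chaperonin, which folds actin and tubulin, had 5 of 8 subunits lowered and CCT7 raised slightly (0.18 ± 0.069), a direction that reversed with quantile normalization (-0.08).

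**Figure D4:**
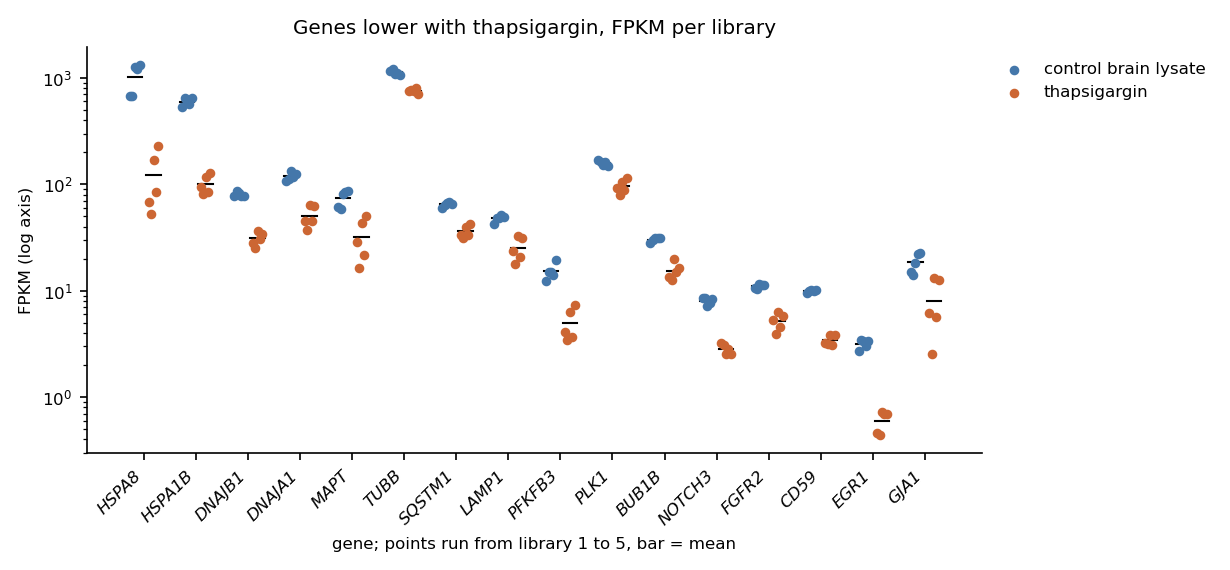
FPKM on a log axis for 16 genes that were lower with thapsigargin, in the 5 control libraries (blue) and the 5 thapsigargin libraries (orange), with a bar at each group mean. Cytosolic chaperones lead with HSPA8, and in several genes thapsigargin library 2 is the lowest and library 3 near the top of its group, while NOTCH3 and CD59 vary little.

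Proteasome and autophagy genes moved in both directions. Of 31 proteasome subunits 7 rose (22.6%) and 9 fell (29.0%), against 26.2% and 43.1% of all tested genes. This balance turned with scale, to 12 raised and 2 lowered under median-ratio scaling and 4 raised and 15 lowered with TPM. After the length correction 7 were raised and 13 lowered. The ATPase subunit PSMC4 rose from 73.8 ± 5.1 to 119 ± 13.8 FPKM and the lid subunit PSMD11 fell from 20.9 ± 0.78 to 15.6 ± 1.96 FPKM. In autophagy 6 of 27 tested members rose and 13 fell, near the share of all tested genes (26.2% raised, 43.1% lowered), but 10 raised and 4 lowered after the length correction. WIPI1, which binds phosphoinositides on the forming autophagosome, stood out, at 2.18, 2.48, 2.21, 2.59 and 2.51 FPKM in the control libraries and 7.22, 6.26, 8.61, 8.5 and 8.47 FPKM in the thapsigargin libraries (log2 fold change 1.51 ± 0.10 (SE), adjusted p = 3.9e-07). The autophagy receptor SQSTM1 (p62) read 59.6, 63.4, 66.9, 68.4 and 65.1 FPKM in the control libraries and 33.7, 31.4, 39.6, 33.4 and 42.1 FPKM in the thapsigargin libraries (log2 fold change -0.84 ± 0.088 (SE), adjusted p = 1.5e-05), so all thapsigargin libraries were below all controls. Among lysosomal genes 4 of 25 tested members rose (16%) and 14 fell (56%), against 26.2% and 43.1% of all tested genes. After the length correction 6 were raised and 15 lowered. LAMP1, a lysosomal membrane protein, fell from 48.1 ± 3.3 to 25.2 ± 6.4 FPKM, and the sialidase NEU1 rose from 15.9 ± 1.1 to 26.8 ± 1.3 FPKM.

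Glycolysis and hypoxia genes fell together: 1 rose and 19 fell of 26 tested (median -0.47, 1 raised and 21 lowered after the length correction). PFKFB3, which makes the activator of phosphofructokinase, read 12.4, 15.02, 15.1, 14.1 and 19.5 FPKM in the control libraries and 4.1, 3.46, 6.32, 3.64 and 7.3 FPKM in the thapsigargin libraries (log2 fold change -1.57 ± 0.19 (SE), adjusted p = 3.9e-05). Its paralog PFKFB4 fell from 8.58 ± 1.7 to 2.9 ± 0.6 FPKM and the hypoxia-induced prolyl hydroxylase EGLN3 from 5.43 ± 0.47 to 2.47 ± 0.3 FPKM. The glycolytic enzyme PGK1 fell from 218 to 99.03 FPKM (log2 fold change -1.28 ± 0.29 (SE), adjusted p = 0.0024), and the glucose transporter SLC2A1 by 0.94 (SE 0.18). The abundant ALDOA (-0.11 ± 0.088) and PKM (-0.12 ± 0.084) did not pass. GAPDH, often used as a reference gene, was the raised member, at 5091, 5303, 4683, 4129 and 4726 FPKM in the control libraries and 5867, 6922, 4552, 5879.7 and 5418 FPKM in the thapsigargin libraries (log2 fold change 0.25 ± 0.12 (SE), adjusted p = 0.088), with overlapping groups, and it did not pass after the length correction (0.029, adjusted p = 0.77).

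Of 25 fatty acid and lipid droplet genes 3 rose and 15 fell, and 5 raised and 12 lowered after the length correction. DGAT2, which makes triglyceride, read 1.98, 1.98, 1.79, 1.72 and 1.63 FPKM in the control libraries and 0.39, 0.26, 0.35, 0.17 and 0.3 FPKM in the thapsigargin libraries (log2 fold change -1.55 ± 0.099 (SE), adjusted p = 2.5e-07), while the lipid droplet protein CIDEC rose from 2.03 ± 0.49 to 6.76 ± 1.3 FPKM. In sterol synthesis 8 rose and 12 fell of 28 tested, near the share of all tested genes (26.2% raised, 43.1% lowered), against 10 raised and 9 lowered after the length correction. INSIG1, which retains the sterol sensor in the ER, fell by 0.88 on the log2 scale (SE 0.16). The regulator SREBF1 rose from 9.17 ± 0.39 to 15.9 ± 1.4 FPKM and its paralog SREBF2 fell (-0.34 ± 0.086).

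Mitotic genes were lower. In the G2/M list 2 of 34 tested members rose and 26 fell (median -0.41, 1 raised and 25 lowered after the length correction). PLK1, a mitotic kinase, read 168, 163, 153, 163 and 149 FPKM in the control libraries and 93.02, 79.9, 105, 88.7 and 114 FPKM in the thapsigargin libraries (log2 fold change -0.73 ± 0.095 (SE), adjusted p = 6.5e-05). The checkpoint kinase BUB1B fell from 30.3 ± 1.3 to 15.4 ± 2.8 FPKM and AURKA, of the spindle poles, from 64.4 ± 2.8 to 40.1 ± 3.4 FPKM. The 2 members called higher, AURKB (log2 fold change 0.40 ± 0.12 (SE), adjusted p = 0.011) and UBE2C (log2 fold change 0.30 ± 0.13 (SE), adjusted p = 0.056), are short transcripts, and neither passed after the length correction, where UBE2C turned (-0.016). In DNA replication 8 of 35 tested members rose (22.9%) and 19 fell (54.3%), against 26.2% and 43.1% of all tested genes. The initiation factors CDC6 (0.66 ± 0.14) and CDC45 (0.54 ± 0.072) rose, while the helicase subunits MCM2 (-0.74 ± 0.13) and MCM6 (-0.64 ± 0.15) and the reductase subunit RRM1 (-0.74 ± 0.19) fell. Under median-ratio scaling this list had 10 raised and 11 lowered, and after the length correction 10 raised and 16 lowered. Clustered histone genes rose, 17 of 24 tested with 0 lowered (median 0.61), and 12 raised and 4 lowered after the length correction. Their median transcript is 487 bases long, histone copies share reads, and most histone mRNAs lack the poly(A) tail that mRNA libraries select, so single members are uncertain. HIST2H2AA3 and HIST2H2AA4, identical copies, had the same values in all 10 libraries.

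The balance of ribosomal and respiratory chain genes depended on the length correction and on scale. Of 84 cytosolic ribosomal protein genes 52 rose and 6 fell (median 0.30), but 30 raised and 24 lowered after the length correction and 27 raised and 21 lowered with quantile normalization. Of 77 mitochondrial ribosomal genes 39 rose and 15 fell, and 26 raised and 21 lowered after the correction. Of 76 nuclear-encoded respiratory chain genes 35 rose and 17 fell, and this direction turned to 16 raised and 32 lowered after the correction and to 18 raised and 28 lowered with TPM. The median transcript of these lists has 827, 1224 and 763 bases, against 3325 over all tested genes. Control libraries 4 and 5 were the low ones of their group for RPL10, which read 1653, 1636, 1589, 1347 and 1438 FPKM in the control libraries and 2430.2, 2798, 1965, 2616 and 2070.3 FPKM in the thapsigargin libraries (log2 fold change 0.62 ± 0.11 (SE), adjusted p = 6.4e-04). The members that fell included MRPL33 (-0.79 ± 0.17), NDUFB3 (-0.59 ± 0.088) and SDHC (-0.91 ± 0.15).

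Genes of secreted and cell surface proteins were among the lowered ones. Of 24 receptor tyrosine kinase and growth factor receptor genes 0 rose and 21 fell (median -0.51), and 13 remained lowered by count after the length correction. FGFR3 read 18.6, 20.2, 16.6, 19.2 and 18.4 FPKM in the control libraries and 11.4, 9.09, 7.63, 8.25 and 7.59 FPKM in the thapsigargin libraries (log2 fold change -1.05 ± 0.11 (SE), adjusted p = 1.4e-05) and FGFR2 fell from 11.03 ± 0.54 to 5.18 ± 0.95 FPKM. Among 28 Notch, Wnt and Hedgehog genes 4 rose and 20 fell, and 4 raised and 17 lowered after the correction. NOTCH3 read 8.46, 8.6, 7.22, 7.69 and 8.35 FPKM in the control libraries and 3.24, 3.08, 2.54, 2.83 and 2.55 FPKM in the thapsigargin libraries (log2 fold change -1.36 ± 0.09 (SE), adjusted p = 3.9e-07). Its values barely varied within the groups. NOTCH1 fell from 3.76 ± 0.24 to 1.48 ± 0.16 FPKM and the Hedgehog effector GLI2 from 6.08 ± 0.34 to 3.07 ± 0.28 FPKM. Of 12 cadherin genes 2 rose and 10 fell (median -0.75, 2 raised and 9 lowered after the correction), led by CELSR2 (from 6.88 ± 0.76 to 2.64 ± 0.26 FPKM). The correction also altered the basement membrane list: of 42 collagen, laminin and integrin genes 2 rose and 27 fell, but 10 raised and 18 lowered with length corrected, where the median was -0.063. COL4A1 fell from 7.16 ± 0.4 to 2.8 ± 0.62 FPKM. Its neighbour COL4A2, which forms the same collagen trimer, fell from 13.1 ± 0.28 to 8.74 ± 0.21 FPKM, a difference that was smaller after the correction (-0.20, adjusted p = 0.079).

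The mRNAs that IRE1 can cleave on the ER membrane, as described for other cells, did not move as a group: of 13 tested 1 rose and 4 fell, with 3 raised and 3 lowered under median-ratio scaling and 4 raised and 6 lowered after the length correction. SCARA3 fell from 3.92 ± 0.25 to 1.97 ± 0.081 FPKM, while BLOC1S1, the best known of these substrates, did not pass (log2 fold change 0.089 ± 0.17 (SE), adjusted p = 0.65).

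The transgene of these cells is built from MAPT, which encodes tau. Its values were 61.8, 59.03, 80.2, 84.1 and 86.5 FPKM in the control libraries and 28.8, 16.2, 43.3, 21.8 and 50.8 FPKM in the thapsigargin libraries (log2 fold change -1.30 ± 0.26 (SE), adjusted p = 0.0012). Libraries 3 and 5, the highest of the thapsigargin group, were still below control library 2. The cells carry the tau repeat domain as a transgene, and FPKM per gene does not tell its reads from those of the endogenous gene. Over tau, tubulin and microtubule genes 4 of 24 tested members rose and 15 fell (median -0.39), and 4 raised and 14 lowered after the length correction. MAP1A read 5.29, 5.76, 5.84, 6.48 and 6.45 FPKM in the control libraries and 2.17, 1.98, 2.23, 2.18 and 2.35 FPKM in the thapsigargin libraries (log2 fold change -1.27 ± 0.084 (SE), adjusted p = 3.8e-07), while its relative MAP1B rose from 9.68 ± 0.94 to 16.8 ± 4.5 FPKM. The abundant tubulins TUBB and TUBA1C fell from 1130.4 ± 64.2 to 757 ± 35.9 FPKM and from 552 ± 29.7 to 339 ± 40.9 FPKM, both members of families with shared sequence, and the tau kinases GSK3A and GSK3B moved apart (0.45 ± 0.11 and -0.46 ± 0.11).

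Several of the most changed genes belonged to none of these lists. MSTO1, a mitochondrial distribution factor with a near-identical pseudogene, read 42.6, 45.2, 39.2, 42.6 and 42.1 FPKM in the control libraries and 186, 175, 157, 174 and 164 FPKM in the thapsigargin libraries (log2 fold change 2.002 ± 0.07 (SE), adjusted p = 2.0e-09). CDK2AP2, a CDK2-associated protein that the study lists under ATF6, rose from 62.4 ± 8 to 462 ± 107.6 FPKM, PLPP5, a lipid phosphatase, from 9.66 ± 1.1 to 44.9 ± 4.3 FPKM, and the transporter SLC22A31 from 1.52 ± 0.22 to 11.5 ± 3.4 FPKM. Among the decreases, TIMP2, a metalloproteinase inhibitor, read 9.76, 9.7, 9.7, 9.86 and 9.74 FPKM in the control libraries and 3.35, 3.1, 4.02, 3.21 and 3.71 FPKM in the thapsigargin libraries (log2 fold change -1.37 ± 0.082 (SE), adjusted p = 1.5e-07). The 5 controls differed by less than 0.2 FPKM. CD59, a complement inhibitor on the cell surface, fell from 9.93 ± 0.33 to 3.43 ± 0.39 FPKM, the actin regulator KANK2 from 8.06 ± 0.5 to 3.2 ± 0.21 FPKM and RTN4RL1, a Nogo receptor relative, from 1.97 ± 0.24 to 0.446 ± 0.068 FPKM. HOXA13 (-2.04 ± 0.19), the transferrin receptor TFRC (-1.94 ± 0.23), RBM12 (-1.83 ± 0.18), SALL2 (-1.81 ± 0.22), the chemokine receptor CXCR4 (-1.79 ± 0.20) and TSPYL1 (-1.73 ± 0.27) had further large decreases.

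The study's own gene panels gave high counts, but those for PERK, IRE1 and ATF6 are not independent evidence, since they were described as induced by thapsigargin in these cells, while the ERAD panel is a gene ontology term. In the PERK panel 30 of 31 genes rose and 0 fell (median 1.18), and DDIT4 alone did not pass (log2 fold change 0.29 ± 0.17 (SE), adjusted p = 0.16). In the IRE1 panel 23 rose and 3 fell of 31 tested (median 0.95), the lowered ones being NDRG1, LMAN1 and PAWR. PAWR was at 0.014 after the length correction. In the ATF6 panel 60 rose and 1 fell of 73 (median 0.65) and in the ERAD panel 38 rose and 3 fell of 69 (median 0.20), the last with 28 raised and 13 lowered in TPM. After the length correction the ERAD panel had 42 raised and 2 lowered.

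**Figure D5:**
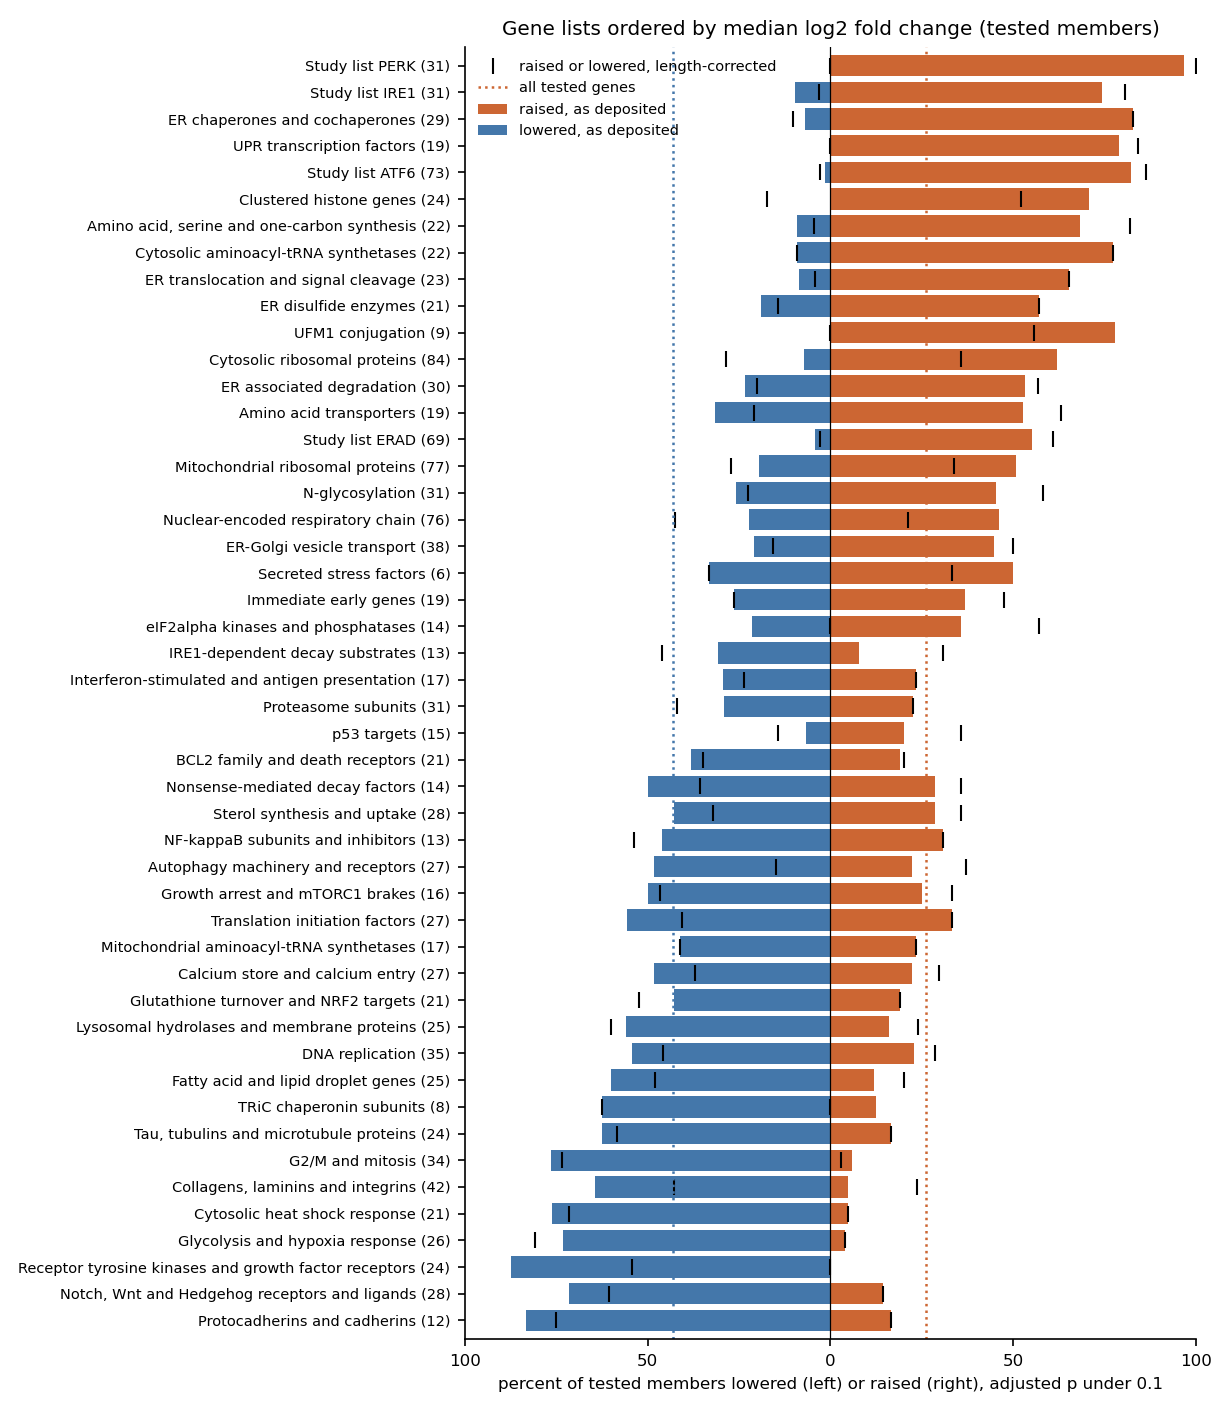
Percent of tested members that rose (orange, right) or fell (blue, left) at an adjusted p under 0.1 in each gene list, with the number tested in brackets, ordered by median log2 fold change. Black ticks mark the same after the length correction and dotted lines the share of all tested genes (26.2% raised, 43.1% lowered). ER, transcription factor and amino acid lists stand at the top with ticks near the bar ends. For ribosomal and respiratory chain lists the raised ticks lie inside the bars and the lowered ticks outside them. For the autophagy list the lowered tick lies inside and the raised tick outside. For the receptor tyrosine kinase list the lowered tick lies inside the bar.

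Within the thapsigargin group the libraries lay closer together for the UPR transcription factors and ER chaperones than for the genes lowered at least 2-fold. This is a description and did not hold for every list. The study's IRE1 panel ran from 0.75 in library 2 to 1.31 in library 3. The lowered Notch, Wnt and Hedgehog list ran only from -0.50 in library 3 to -0.62 in library 2. The genes lowered at least 2-fold were picked by their change in these same libraries, and their values are medians, not means. The mean difference of the UPR transcription factors from the control mean was 1.12, 1.04, 1.07, 1.06 and 1.201 on the log2 scale in libraries 1 to 5, and that of the ER chaperones 1.05, 0.98, 1.17, 1.05 and 1.17. The median difference of the 352 genes lowered at least 2-fold, in contrast, was -1.29, -1.65, -0.74, -1.30 and -0.89, and that of the G2/M genes ran from -0.25 in library 3 to -0.73 in library 2. Library 2 was thus the extreme and libraries 3 and 5 the nearest to control. The 223 genes raised at least 2-fold kept that order (1.30, 1.5, 1.07, 1.26 and 1.15), which the UPR transcription factors and ER chaperones did not. Among passing genes with a name and a mean of at least 5 FPKM over both groups, the 8 with the widest spread within the thapsigargin group all fell. GJA1, which encodes the gap junction protein connexin 43, read 15.1, 14.2, 18.1, 21.97 and 22.6 FPKM in the control libraries and 6.13, 2.52, 13.3, 5.63 and 12.7 FPKM in the thapsigargin libraries (log2 fold change -1.33 ± 0.34 (SE), adjusted p = 0.0054). MAD2L1, of the spindle checkpoint, read 61.6, 56.1, 82.1, 77.9 and 80.9 FPKM in the control libraries and 24.3, 10.4, 56.7, 18.8 and 53.5 FPKM in the thapsigargin libraries (log2 fold change -1.37 ± 0.38 (SE), adjusted p = 0.0074). The groups of MAD2L1 overlapped, since library 3 reached control library 2. In both genes libraries 1, 2 and 4 were low, libraries 3 and 5 nearer to control, and control libraries 1 and 2 below control libraries 3 to 5. The other 6 were NOMO3 and HNRNPH2, which have near-identical relatives, ASDURF, SLC25A24, SNX7 and SYPL1, with log2 fold changes from -1.95 to -1.10.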

How the data were processed

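RNA-Seq FPKM tables of 5 control and 5 thapsigargin libraries were joined by gene ID. As deposited, the FPKM values had been made by the authors, who aligned cleaned paired-end reads of stranded mRNA libraries to GRCh38.p12 with HISAT2 2.0.4 and quantified them with RSEM 1.2.12, and the submitters' notes also name DESeq2 1.4.5. The methods name a nominal read number per sample, but the mapped depth of each library is unknown, since the files hold no counts. Of the gene symbols in the deposited tables, 26 that a spreadsheet had turned into dates were restored. Genes that averaged 1 FPKM or more over the 10 libraries were tested with limma 3.58.1 (trended empirical Bayes, R 4.3.3) on log2(FPKM + 0.5), with Benjamini-Hochberg adjustment over all tested genes and a threshold of 0.1. The procedure was run on simulated data with 200 changed genes and noise drawn separately for each gene. In a further run a length slope was added to every library. Neither setting matches these data, where most genes were called, so no support is drawn from them. Members and gene lists were chosen with earlier results of these data known.

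Named genes were a fixed set of sensors, SERCA pumps, HSPA5 and MAPT, then the 10 raised and 10 lowered genes of smallest p with a change of at least 2-fold and no overlap, the 10 of largest change in each direction, up to 3 members of each list of smallest p plus up to 2 in the opposite direction, and the 8 of largest SD in the thapsigargin group. Other list members and motif-bearing genes named here were chosen after their values were seen. Transcript lengths were those of GENCODE canonical transcripts matched by symbol. For the length correction, each library's deviation from the gene mean was fitted on a natural spline of log2 length with 4 degrees of freedom and subtracted. Promoters were those of RefSeq on GRCh38.p14. Alternatives covered scaling, filters, pseudocounts, thresholds, the replicate block and left-out libraries. Some genes are not reported here.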

Additional observations from a re-analysis of the deposited data

Results flagged for a closer look

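In groups of 5 libraries, a single library stood apart from the other 4 by Dixon's test in 13 of the 434 gene and group combinations examined for the 217 named genes. Chance flags about 1 in 20. Among the controls, library 4 was low for TRIB3 (15.47 FPKM) and stood apart for SELENOK (32.1), NPLOC4 (30.87) and UBE2G2 (72.44). Control library 2 stood apart for SYVN1 (37.02), COPG1 (63.5) and HMOX1 (44.3), control library 1 for HERPUD1 (22.53), and control library 5 for MYLIP (5.73) and COL26A1 (3.6). Among thapsigargin libraries, library 3 stood apart for TARS (187.92) and GPT2 (30.91), and library 1 for KANK2 (3.56).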

How the results depend on the processing

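The number of genes called stayed within 1.5 times 8152 in every alternative run. It ranged from 7422 to 8736 with 1 library left out, and was 7275 at an adjusted p under 0.05 and 6218 without control libraries 4 and 5. The number changed at least 2-fold, 575 in the reported fit, ranged from 403 to 828 with 1 library left out. It was 977 in TPM, 885 without control libraries 1 and 2 and 363 after the length correction, the last pair of settings chosen after seeing the data. Directions of named genes reversed for TNFSF9 (0.041) and CCT7 (-0.080) with quantile normalization, and for UBE2C (-0.016) and PAWR (0.014) after the length correction, and the cause was not tested. Replicate numbers were not taken to pair the libraries, since same-numbered deviations correlated at 0.472, 0.608, 0.347, -0.13 and 0.358, so that 4 of 5 pairs deviated together and 1 did not, and thapsigargin library 2 alone correlated best with its own number. With the replicate block 8579 genes were called (3263 raised, 5316 lowered). The study states a nominal read number per sample, but mapped reads per library were not given in the sources used here, so no counting error is given for low values.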

Other observations

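Signalling transcription factors outside the unfolded protein response moved one by one. Of 19 immediate early genes 7 rose (36.8%) and 5 fell (26.3%), beside 26.2% and 43.1% of all tested genes. In TPM 4 were raised and 6 lowered. FOSL1 (1.16 ± 0.23, log2 fold change ± SE), JUND (1.06 ± 0.16) and JUN (0.77 ± 0.14), subunits of AP-1, rose, while FOS (0.10 ± 0.19) did not pass. EGR1, a growth factor-induced zinc finger factor, fell (-1.75 ± 0.11), as did the MAP kinase phosphatase gene DUSP1 (-0.74 ± 0.19). Among 13 NF-κB genes 4 rose and 6 fell, near the share of all tested genes (26.2% raised, 43.1% lowered). The subunits of the noncanonical branch, NFKB2 (0.71 ± 0.14) and RELB (0.67 ± 0.12), rose, and NFKB1 (-0.55 ± 0.16) and REL (-0.71 ± 0.19) fell. The inhibitor NFKBIB rose (1.06 ± 0.11) and the inducible brake TNFAIP3 fell (-0.54 ± 0.096).

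Interferon and antigen presentation genes did not move together. Of 17 tested 4 were raised (23.5%) and 5 lowered (29.4%), beside 26.2% and 43.1% of all tested genes, and 5 and 2 under median-ratio scaling. The ubiquitin-like modifier ISG15 rose (0.98 ± 0.18), while the class I light chain B2M (-0.67 ± 0.13) fell. Of 27 translation initiation factors 9 rose (33.3%) and 15 fell (55.6%), beside 26.2% and 43.1% of all tested genes. Under median-ratio scaling 9 were raised and 7 lowered. The cap-binding complex was lower, with the scaffold EIF4G1 at -0.92 ± 0.11 and the cap-binding EIF4E at -0.86 ± 0.18, whereas the start codon factor EIF1 rose (0.61 ± 0.078). In nonsense-mediated decay, which also degrades some stress mRNAs, 4 of 14 factors rose and 7 fell, with 5 and 5 after the length correction. The uncorrected counts lay near the share of all tested genes (26.2% raised, 43.1% lowered). The kinase SMG1 fell (-0.81 ± 0.14) and UPF3B rose (1.07 ± 0.14).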
